A study of Rattus norvegicus with 19 samples.

Results

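Rat bone stem cells were set against the whole Leydig cell lineage of the testis, to find the genes that differ between these 2 kinds of cell at every stage of the lineage. The comparison used 3 bone stem arrays against 16 Leydig arrays, which are all 19 arrays of the series. The Leydig arrays cover 4 stages, with 5 arrays of stem, 3 of progenitor, 4 of immature and 4 of adult Leydig cells. All cells came from rats of the Sprague-Dawley strain, and no genotype or treatment is named for any group. Age, the bone of origin, the isolation and any culture of the cells are not stated in the labels, so none of these can be told apart from the kind of cell. Whether the arrays within a group stand for different animals is not stated either, so each p-value is set against the spread of these samples alone, and that spread may be technical.

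Leydig cells lie between the seminiferous tubules of the testis and make testosterone from cholesterol. Their precursors acquire the steroid enzymes and the receptor for luteinizing hormone as they mature. Stem cells of bone and its marrow include stromal cells, which can form bone, cartilage and fat, and blood-forming cells, whose progeny include macrophages and osteoclasts. Cells of different body regions keep different sets of patterning factors, such as the Hox proteins, which mark position along the body and limb axes, and the factors Gata4, Nr5a1 and Wt1, which act in the gonad. The roles given here for single genes are background, known mainly from mouse and human work.

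Each probe set has 1 intensity per array, called the signal here, on a linear scale on which the trimmed mean of every array is 100. A gene was taken as above the lineage when its bone mean lay over all 4 Leydig group means on the log2(signal + 16) scale and the weakest of the 4 differences passed limma's test (adjusted p under 0.05 over all 31042 probe sets). Below the lineage was defined the same way. The gap is the difference of bone stem cells from the nearest Leydig group on that scale, given with its standard error, and the lineage range is the distance between the highest and the lowest Leydig group mean. The added 16 makes log2 differences of dim genes smaller than their true folds, and no detection calls were used, so a low signal has no tested floor.

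The bone group holds a pair of arrays that are very close. Bone replicates 2 and 3 differed by a median of 0.0623 on the log2 scale over 4627 bright probe sets, against 0.190 and 0.200 for replicate 1 with either of them. Immature replicates 2 and 3 differed by 0.0851, and the other pairs within Leydig groups by 0.0963 to 0.319. Whether a close pair is 1 RNA measured again was not tested. Every fit was therefore repeated with each close pair averaged into 1 sample, and the counts of gene lists that this changed stand beside their results. The beta-actin probe sets, which compare the 3' with the 5' end of the transcript as a sign of RNA quality, gave a ratio of 2.38 to 2.95 on the bone arrays, of 6.35 on progenitor replicate 3 and of 1.03 to 2.29 on the other Leydig arrays. The bone ratios thus lay over those of all Leydig arrays but progenitor replicate 3. Without that array 932 probe sets were above and 645 below, against 875 and 484 with all arrays. For the bone arrays the ratio cannot be told apart from the kind of cell, and its part in their results was not tested.

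The labels were checked against defining markers. Thy1, a surface protein of stromal cells, averaged 3174 ± 290 in bone stem cells (SD, n = 3), and the stromal surface genes Cd44, Nt5e and Eng averaged 544.6 ± 23.6, 238.2 ± 63.9 and 109.5 ± 24.5. On the stem Leydig arrays Cd44 ran from 131.4 to 480.9 and Eng from 340.5 to 414.9, so Eng was lower in bone stem cells than in stem Leydig cells. Ptprc, which encodes the leukocyte antigen CD45, was present as well, at 417.5, 226.2 and 228.7 on the 3 bone arrays. Cyp11a1, Cyp17a1, Hsd3b1, Lhcgr and Insl3, which define working Leydig cells, averaged between 1910 and 5483 in the progenitor, immature and adult groups. In bone stem cells these 5 genes averaged 4.10 to 43.6, and in stem Leydig cells 1.09 to 15.7. So the arrays labelled stem Leydig lacked these steroid enzymes and the hormone receptor too, and for these 5 genes bone stem cells could not stand apart from the whole lineage. Star, a further defining marker, was well above these levels on every stem Leydig array, but among the bone arrays only on replicate 1. It was at 441.7, 15.9 and 15.9 on the bone arrays, and bone replicate 1 lay within the range of the stem Leydig arrays, which is given below.

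At the level of genes, 633 of 14217 (4.45%) lay above all 4 Leydig groups in bone stem cells and 283 (1.99%) lay below all 4. In probe sets these were 875 of 31042 (2.82%) above and 484 (1.56%) below. The bone group mean lay above all 4 Leydig group means in 5341 probe sets (17.2%) and below all 4 in 11375 (36.6%) before any test. Against the mean of the 4 Leydig groups, a weaker demand, 4950 probe sets were higher (15.9%) and 7437 lower (24%). With the close pairs averaged, 595 probe sets were above and 225 below. The number of probe sets below was also 230 without bone replicate 2 and 240 without bone replicate 3, against 527 without bone replicate 1. Upward calls made up 64.4% of all probe sets called with the signals as deposited and 80.2% after each array was centred on its median, which moved the median difference of bone stem cells from the Leydig mean by 0.22. With 1 added to each signal in place of 16, 690 probe sets were above and 710 below. The balance of calls above and below thus depended on the added value. In bulk samples fewer cells of a type and less RNA per cell cannot be told apart, and this holds for every difference below.

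The gap of the called genes had a median of 0.99 above and -0.89 below. Of all 14217 genes, it reached a size of 1 or more in 315 above and 109 below, and of 2 or more in 107 above and 17 below. In probe sets a gap of 1 or more was reached by 429 above (1.38%) and 204 below (0.657%). The 3 bone arrays lay over all 16 Leydig arrays in 599 of the 633 genes (4.21% of all genes), and under all 16 in 254 of the 283 (1.79%). In 399 genes above (63.0% of them, and 2.81% of all genes) the gap was larger than the whole lineage range, so bone stem cells lay further from the lineage than its stages lay from each other. The same was true of 144 genes below (50.9% of them, and 1.01% of all genes). In probe sets the shares were 1.82% above and 0.896% below. Stem Leydig cells were the nearest Leydig group for 395 of the genes above (62.4%) and 207 of those below (73.1%). Over all genes, stem Leydig cells were the highest of the 4 Leydig groups in 30.6% and the lowest in 41.3%. At the edge of the call, the last probe set taken as above had an adjusted p of 0.0499 with a gap of 0.69, and the first left out had 0.0501 with a gap of 0.50. Below, the last taken had 0.0498 with a gap of 0.94 in size, and the first left out 0.0501 with 1.26.

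**Figure D1:**
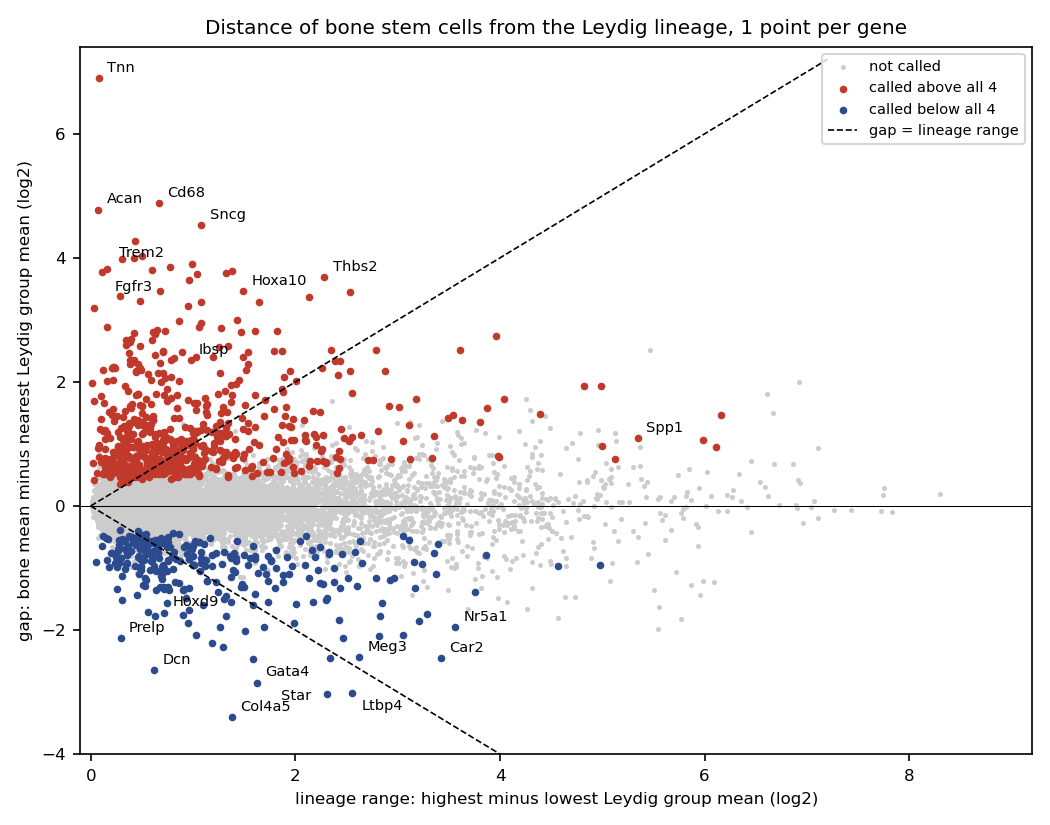
The gap between bone stem cells and the nearest Leydig group (vertical axis, log2) against the range of the 4 Leydig group means (horizontal axis, log2), with 1 point per gene. Points beyond the dashed lines have a gap larger than the lineage range; 399 genes called above and 144 called below lie there. Tnn has the largest gap above (6.90) and Col4a5 the largest below (-3.41), while Spp1 and Nr5a1 lie right of the lines because the lineage itself varies in them.

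The largest gap belonged to Tnn, which encodes tenascin N, a matrix glycoprotein known from bone-forming tissue. Its signal was 1647, 2554 and 2522 on the 3 bone arrays, while the 16 Leydig arrays had a lowest value of 0.591, a median of 2.03 and a highest of 6.56. All bone arrays were bright and all Leydig arrays near the bottom of the scale (gap 6.90 ± 0.16, adjusted p = 5.03e-16). Acan encodes aggrecan, the large proteoglycan of cartilage. It stood at 898.7, 959.7 and 940.3 on the bone arrays, against a median of 16.4 and a highest value of 43.2 on the Leydig arrays (gap 4.78 ± 0.22, adjusted p = 3.6e-11). Sncg, which encodes gamma-synuclein, was at 1431, 1566 and 1570 on the bone arrays and between 9.31 and 79.5 on the Leydig arrays, with stem Leydig cells the nearest group at 52.7 ± 18.6 (SD, n = 5; gap 4.53 ± 0.30). In these 3 genes the lineage range was small, at 0.08 in Tnn and Acan and 1.08 in Sncg, so no Leydig stage came near the bone level.

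Most of the other leading genes are known from macrophages and related myeloid cells. Cd68, a lysosomal protein of macrophages, was at 1825, 2226 and 2232 on the bone arrays. On the Leydig arrays it ran from 19.3 to 87.9 with a median of 37.3 (gap 4.89 ± 0.25, adjusted p = 8.65e-11). Adgre1 encodes the macrophage surface protein F4/80. Its bone signals were 557.7, 452.5 and 439.1, against a median of 12.3 and a highest value of 28.1 on the Leydig arrays (gap 3.98 ± 0.23). Folr2, a folate receptor of tissue macrophages, was at 1039, 935.8 and 895.6 on the bone arrays and at 15.3 to 66.2 on the Leydig arrays (gap 3.86 ± 0.17). Trem2, a receptor of macrophages and osteoclasts, was at 308.0, 221.2 and 253.2 on the bone arrays and never over 5.87 on the Leydig arrays (gap 3.81 ± 0.13). The inhibitory myeloid receptor genes Pilra and Lilrb4 had gaps of 4.27 ± 0.29 and 4.03 ± 0.26, the small GTPase gene Arl11 4.00 ± 0.18 and Mmp12, the macrophage elastase, 3.90 ± 0.27. Mmp12 varied within the bone group, with 1162 on replicate 1 against 465.9 and 518.9 on the others, as did Fabp4, a fatty acid carrier of fat cells and macrophages, with 828.3 against 221.8 and 210.7.

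**Figure D2:**
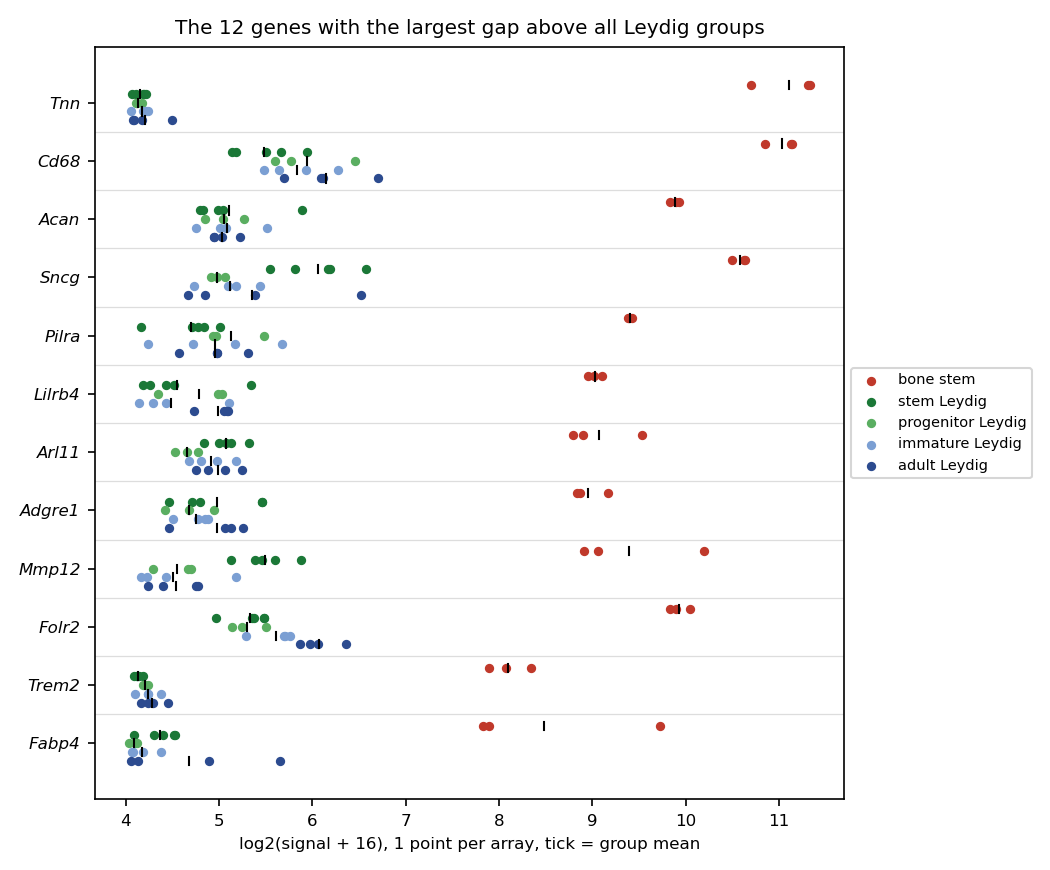
Signals of the 12 genes with the largest gap above all 4 Leydig groups, on the log2(signal + 16) scale, with 1 point per array, a tick at each group mean and bone stem cells in the top row of each gene. The 3 bone arrays lie right of all 16 Leydig arrays in every one of these genes, as the choice of the 12 required.

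Of 28 measured leukocyte markers, 11 lay above all 4 Leydig groups and 0 below, against 4.45% and 1.99% of all genes, and the median difference from the Leydig mean was 1.33, against -0.06 over all genes. The 11 are Cd68, Cd14, Itgb2, Aif1, Ctss, Csf1r, Lyz2, Mrc1, Tyrobp, Fcgr3a and Itgam. All 11 are known from the myeloid branch, though not all from it alone. The count was 11 with the close pairs averaged and 11 without bone replicate 1. Csf1r, the receptor on which macrophages depend, was at 939.8, 300.2 and 327.4 on the bone arrays and at 17.5 to 124.5 on the Leydig arrays (gap 2.20 ± 0.30, adjusted p = 4.77e-05). Tyrobp, the signalling partner of Trem2, was at 2314, 1868 and 1795 on the bone arrays, and progenitor cells came nearest at 696.1 ± 53.3 (SD, n = 3; gap 1.49 ± 0.28). Not all myeloid markers were high in bone stem cells. Cd163, a scavenger receptor of tissue macrophages, was at 0.4, 6.5 and 1.2 on the bone arrays, against 15.4 to 31.7 on the adult arrays. Cd74, the MHC class II invariant chain gene of antigen-presenting cells, was at 79.2, 12.5 and 7.6 on the bone arrays, against 582.9 or more on every progenitor, immature and adult array. Some lymphocyte markers were low in bone stem cells too. Cd3e, a T cell receptor component, was at 1.0 to 1.5 on the bone arrays, against a median of 128.9 on the immature and 56.3 on the progenitor arrays, and Gzma, a granule protease of killer cells, at 2.1 to 6.1 on the bone arrays against 1013 to 1193 on the progenitor arrays. Ptprc and Laptm5, which all leukocytes share, did not pass, with Ptprc at 290.8 ± 110 in bone stem cells and 370.6 ± 42.8 in progenitor cells (SD, n = 3 each).

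The summed signal of the 28 leukocyte markers was 18602 to 23709 on the bone arrays. It was 1559 to 2052 on the stem, 9744 to 12194 on the progenitor, 5468 to 12122 on the immature and 2369 to 4801 on the adult Leydig arrays. The immature value of 12122 came from replicate 4 and lay in the progenitor range, with 5468 to 8036 on the other immature arrays. Bone replicate 1 had the highest sum. Among the 11 called markers 9 were higher on bone replicate 1 than on the mean of bone replicates 2 and 3 (median log2 difference 0.48). The same held for 237 of the 633 genes called above (median -0.14) and for 7570 of all 14217 genes (median 0.02). The complement genes C1qa, C1qb and C1qc, products of macrophages, were at 1126, 460.9 and 536.5 on bone replicate 1, but at 11.7 to 24.2 on bone replicates 2 and 3, and none of the 3 was called. The part of leukocytes in the other differences was not tested.

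**Figure D3:**
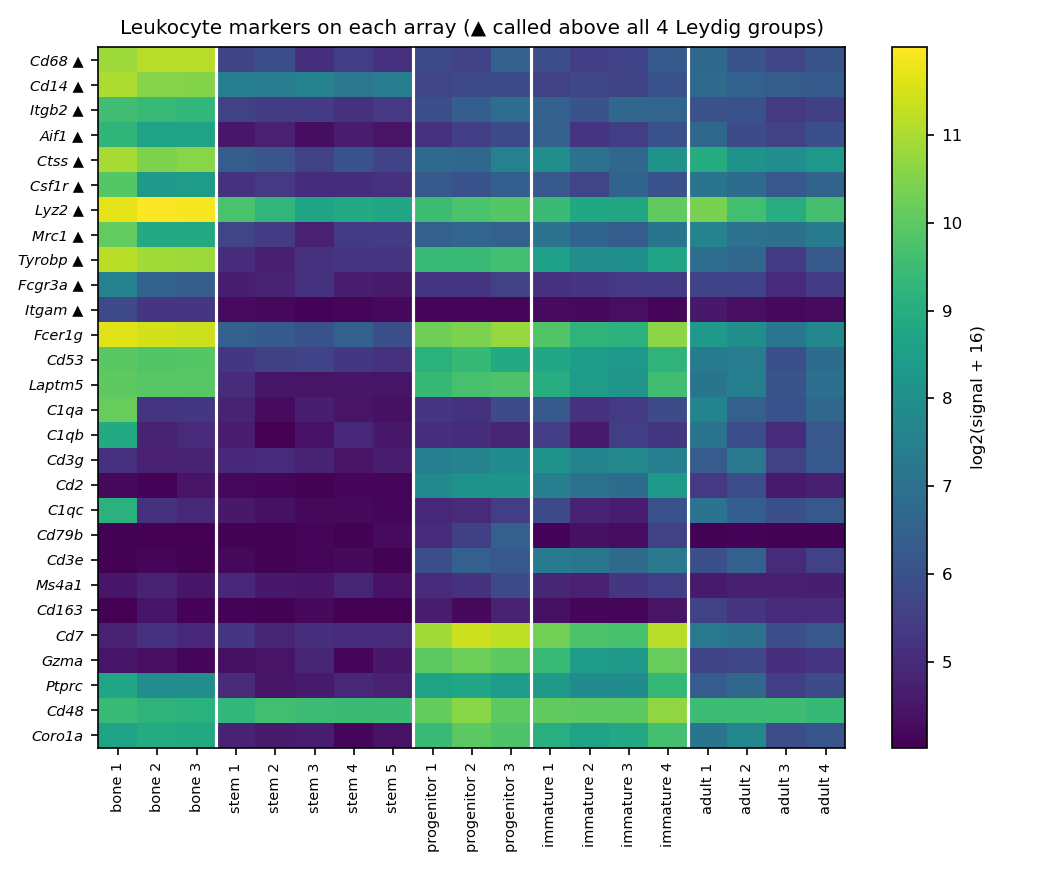
Signals of the 28 leukocyte markers (rows) on each of the 19 arrays (columns), coloured by log2(signal + 16), with white lines between groups and a triangle beside markers called above all 4 Leydig groups. The 11 called markers are brighter on the bone arrays, C1qa, C1qb and C1qc are bright on bone replicate 1, and Cd7 and Gzma on the progenitor and immature arrays.

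The promoters of the leukocyte markers were searched on both strands for GAGGAA, the core letters bound by the myeloid factor PU.1. Each RefSeq window (build GRCr8) runs from 250 bases before to 50 bases after the gene start. The letters occurred in 8 of the 8 called leukocyte markers that have a window and in 7 of 12 leukocyte markers that were not called (58.3%). They occurred in 179 of 514 genes called above (34.8%), 62 of 225 called below (27.6%) and 26.8% of the 11700 windows of genes on the array. A match is a description of the letters, not a site in use. The motif was chosen with the called markers known, and whether PU.1 acts on them was not tested. The letters AAGGTCA, which the gonadal factor encoded by Nr5a1 binds as a monomer, were in 20 of 514 windows of genes called above (3.89%), 1 of 225 called below (0.444%) and 3.15% of those on the array. Windows of 3 of the called markers are shown as examples. Markers on 1 chromosome were passed over, which left out Cd14 and Csf1r, with 2 matches each and larger gaps than Lyz2. Each match is in capitals and read 5′ to 3′ on the strand of the gene, where TTCCTC is the same motif on the other strand.
Cd68 lies at chr10:54882392-54882691 on the minus strand, with matches starting 27 bases before the gene start on the opposite strand and 4 bases after it on the strand of the gene.
Cd68 promoter: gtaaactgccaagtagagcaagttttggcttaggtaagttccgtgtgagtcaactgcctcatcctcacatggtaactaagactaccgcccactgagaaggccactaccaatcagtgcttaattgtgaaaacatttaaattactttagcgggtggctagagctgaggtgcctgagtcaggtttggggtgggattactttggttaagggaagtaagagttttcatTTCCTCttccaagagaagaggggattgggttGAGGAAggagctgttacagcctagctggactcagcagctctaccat
Ctss, which encodes the lysosomal protease cathepsin S, lies at chr2:185775146-185775445 on the plus strand, with 1 match 15 bases before the start on the opposite strand.
Ctss promoter: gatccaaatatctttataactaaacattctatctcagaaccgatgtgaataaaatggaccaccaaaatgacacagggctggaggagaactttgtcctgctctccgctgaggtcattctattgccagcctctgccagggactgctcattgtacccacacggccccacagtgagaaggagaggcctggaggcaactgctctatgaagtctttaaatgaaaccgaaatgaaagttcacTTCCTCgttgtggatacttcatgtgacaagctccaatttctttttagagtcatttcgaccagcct
Lyz2, the lysozyme gene of macrophages, lies at chr7:54797962-54798261 on the minus strand, with 1 match 46 bases before the start on the strand of the gene.
Lyz2 promoter: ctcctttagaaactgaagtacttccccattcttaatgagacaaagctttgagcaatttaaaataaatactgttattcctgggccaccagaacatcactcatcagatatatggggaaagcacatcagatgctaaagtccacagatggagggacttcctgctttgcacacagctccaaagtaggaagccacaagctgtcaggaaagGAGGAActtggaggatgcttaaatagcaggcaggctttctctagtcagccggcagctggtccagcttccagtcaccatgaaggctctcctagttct
On the arrays Cd68 was the leading leukocyte marker. Ctss was at 1953, 1392 and 1508 on the bone arrays, and adult cells were nearest at 317.6 ± 113 (SD, n = 4; gap 2.33 ± 0.32). Lyz2 was at 3244, 4080 and 3829 on the bone arrays, and progenitor and adult cells were nearest at 833.6 ± 104 and 841.8 ± 350 (gap 2.14 ± 0.33).

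The Hox genes split by cluster. All 5 measured Hoxa genes lay above the lineage in bone stem cells, while 3 of 7 measured Hoxd genes lay below it, and 0 of 6 Hoxb and 0 of 4 Hoxc genes passed in either direction. Over all genes 4.45% lay above and 1.99% below. Over the 22 measured Hox genes the median difference from the Leydig mean was -0.04, against -0.06 over all genes. Hoxa10 was at 505.6, 658.5 and 619.8 on the bone arrays. On the stem Leydig arrays it ran from 25.1 to 59.8, and on the later Leydig arrays it did not exceed 16.5 (gap 3.46 ± 0.22, adjusted p = 1.44e-09). Hoxa9 was at 138.2, 195.5 and 190.8 on the bone arrays and at 0.503 to 13.1 on the Leydig arrays (gap 2.78 ± 0.15). Hoxa11, a factor of the middle limb segment, was at 82.1, 106.6 and 107.9 on the bone arrays against 5.97 to 24.4 on the Leydig arrays (gap 2.01 ± 0.20). Hoxa5 and Hoxa7 were dim throughout, at 38.0 ± 3.99 and 17.4 ± 6.1 in bone stem cells (gaps 1.25 ± 0.19 and 0.76 ± 0.12). In each of the 5 the bone arrays lay over all Leydig arrays. The antisense transcript Hoxa11-as, which is in no list and was chosen after its values were seen, was called above too (gap 0.94, adjusted p = 0.042).

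In the Hoxd cluster the order was the reverse. Hoxd9 was at 26.9, 27.7 and 26.3 on the bone arrays, against a lowest value of 112.2, a median of 166.1 and a highest of 281.4 on the Leydig arrays (gap -1.72 ± 0.15, adjusted p = 1.69e-07). Hoxd8 averaged 181.8 ± 28.8 in bone stem cells (SD, n = 3), and the Leydig arrays ran from 447.5 to 833.5 (gap -1.36 ± 0.11). Hoxd10 averaged 13.4 ± 5.96 in bone stem cells, with adult cells nearest at 33.6 ± 1.75 and stem Leydig cells far higher at 234.6 ± 41.7 (gap -0.77 ± 0.16). Bone and Leydig arrays did not overlap in any of the 3. The counts of 5 above and 3 below were the same after median centring and with the close pairs averaged. Without the lowest 40% of probe sets 2 Hoxa genes remained called, since the dimmer ones were no longer tested. Hoxc10 was not analysed here.

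**Figure D4:**
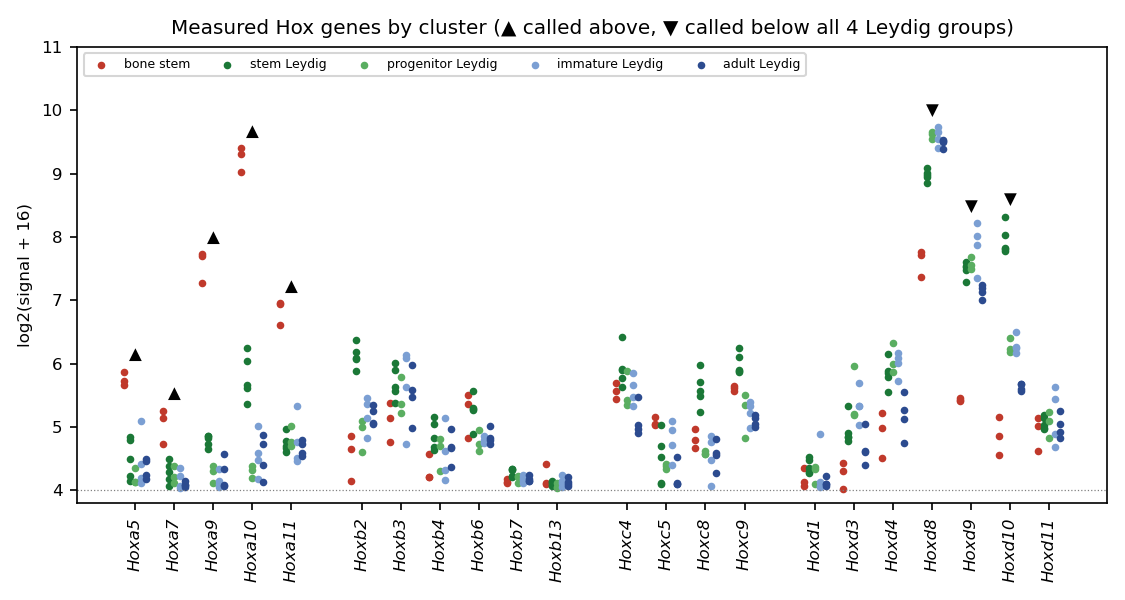
Signals of the 22 measured Hox genes, grouped by cluster, on the log2(signal + 16) scale (vertical axis), with 1 point per array and bone stem cells left of the 4 Leydig groups. Triangles mark the 5 Hoxa genes called above and the 3 Hoxd genes called below; the dotted line at 4 is a signal of 0.

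Among 28 measured transcription factors of limb and skeleton 8 lay above the lineage in bone stem cells and 1 below, against 4.45% and 1.99% of all genes, and the rest did not pass (median difference from the Leydig mean 0.21, against -0.06 over all genes). Irx3, which acts in the early limb bud, was at 396.1, 777.3 and 776.4 on the bone arrays. The Leydig arrays had a lowest value of 0.576, a median of 4.16 and a highest of 54.5, on a stem Leydig array (gap 3.79 ± 0.29, adjusted p = 1.67e-08). Scx, the scleraxis gene of tendon cells, was at 55.3, 229.9 and 228.8 on the bone arrays and at most 37.3 on the Leydig arrays (gap 2.35 ± 0.33). Shox2, a factor of limb growth, had 43.4, 128.1 and 101.0 on the bone arrays and at most 13.0 on the Leydig arrays (gap 2.23 ± 0.22). In all 3 genes bone replicate 1 was the lowest of the bone arrays. Tbx18, Prrx2, Msx2, Dlx5 and Pax9 had gaps of 1.54, 1.47, 1.40, 0.98 and 0.94. Of these Prrx2 was the brightest in bone stem cells (915.9 ± 242), and it also varied along the lineage, with 317.7 ± 74.9 in stem and 12.3 ± 3.67 in adult Leydig cells. Pax9, at 19.5 ± 5.37, stayed near the bottom of the scale. Tbx3 was the member below, at 25.4 ± 4.14 in bone stem cells with 67.6 ± 28.6 in stem Leydig cells as the nearest group (gap -0.95 ± 0.21). It lost the call with the close pairs averaged (adjusted p = 0.0553). With the close pairs averaged 8 were above and 0 below, and 2 were above without the lowest 40% of probe sets. Runx2 and Sp7, the main osteoblast factors, were not analysed here.

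Of 18 measured transcription factors of the gonad 6 lay below the lineage in bone stem cells and 0 above, against 1.99% and 4.45% of all genes, with a median difference of -0.67 from the Leydig mean. With the close pairs averaged 5 were below and 2 above, and the same counts came from median centring and quantile normalization. In each of these settings the genes above were Lhx2 and Dmrt1, which averaged 15.8 ± 7.48 and 17.3 ± 1.53 in bone stem cells, and the call lost below was that of Wt1. Gata4, which drives gonad formation and Leydig gene expression, was at 44.8, 12.2 and 7.8 on the bone arrays. The lowest of the 16 Leydig arrays had 190.1 and their median was 573.2 (gap -2.85 ± 0.21, adjusted p = 7.53e-09). Nr5a1 encodes the nuclear receptor that switches on the steroid enzymes. Its signals were 9.8, 10.2 and 4.6 on the bone arrays, while the stem Leydig arrays had 70.5 to 96.3 and adult cells reached 1080 ± 53.4 (SD, n = 4; gap -1.95 ± 0.12, adjusted p = 8.51e-10). So even the stem Leydig cells, in which Cyp11a1 was at 15.7 ± 3.84, held more Nr5a1 signal than bone stem cells. Lhx9, a factor of the early gonad, averaged 8.74 ± 7.19 in bone stem cells against 63.1 to 150.9 on the Leydig arrays (gap -1.77 ± 0.21). Nr2f2, a factor of testis interstitial cells, averaged 281.9 ± 9.88 in bone stem cells and was at 648.7 or more on every Leydig array (gap -1.29 ± 0.14). Tcf21 and Wt1 had gaps of -1.29 ± 0.26 and -1.18 ± 0.30. Wt1 is the least firm of the 6, with an adjusted p of 0.022, and of 0.13 with the close pairs averaged.

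**Figure D5:**
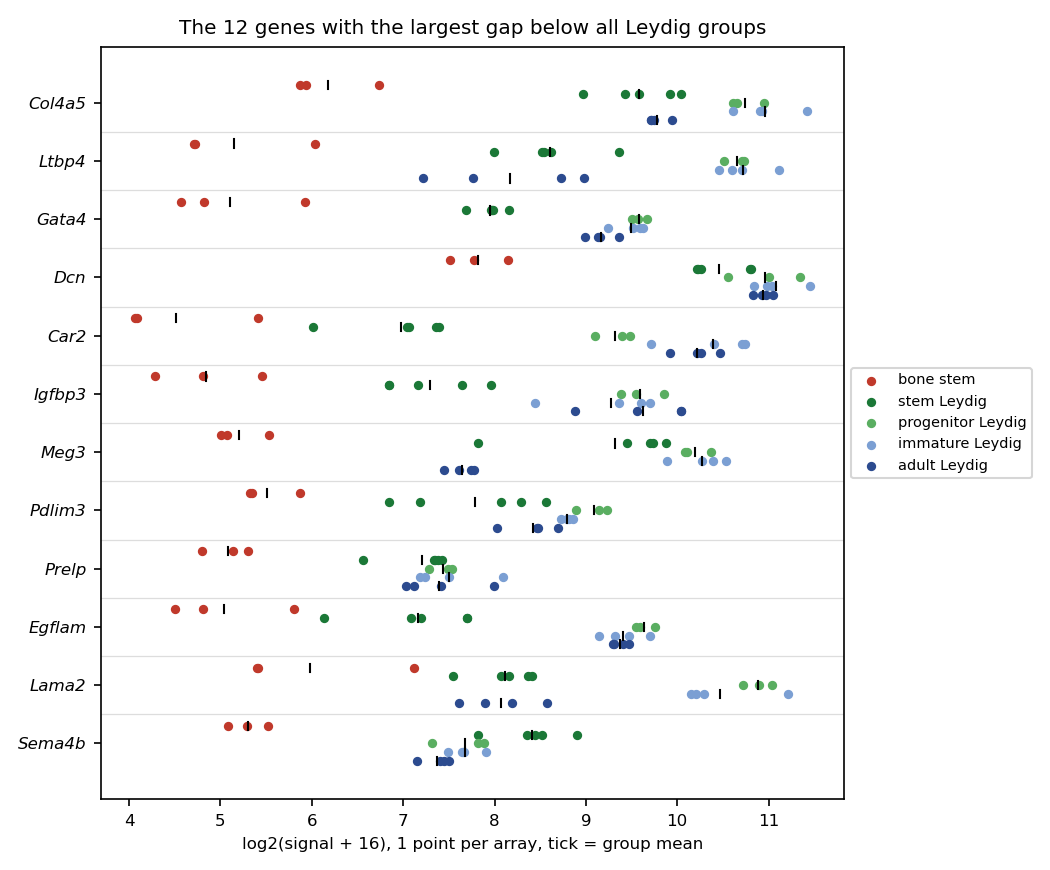
Signals of the 12 genes with the largest gap below all 4 Leydig groups, on the log2(signal + 16) scale, with 1 point per array, a tick at each group mean and bone stem cells in the top row of each gene. The 3 bone arrays lie left of all 16 Leydig arrays, and bone replicate 1 is the highest of the 3 in all but Igfbp3, Prelp and Sema4b.

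The genes with the largest gaps below the lineage include several of the extracellular matrix. Col4a5, a basement membrane collagen chain, was at 90.9, 45.2 and 42.3 on the bone arrays, against a lowest value of 484 and a median of 1003 on the Leydig arrays (gap -3.41 ± 0.23, adjusted p = 2.78e-09). Ltbp4, which holds latent TGF-beta in the matrix, was at 49.4, 10.3 and 10.2 on the bone arrays and at 132.8 or more on the Leydig arrays (gap -3.02 ± 0.37). Decorin, Dcn, a small proteoglycan that binds collagen fibrils, was at 268.5, 167.2 and 202.9 on the bone arrays. It was between 1170 and 2785 on every Leydig array, with a lineage range of 0.62, so the 4 stages were alike and bone stem cells apart (gap -2.65 ± 0.19, adjusted p = 1.02e-08). Prelp, a related proteoglycan, had the same form, with 18.2 ± 5.89 in bone stem cells against 78.2 to 256.4 on the Leydig arrays (gap -2.13 ± 0.24). The laminin chain gene Lama2 (gap -2.09 ± 0.34) and the matrix gene Egflam (-2.12 ± 0.28) were lower too. In Lama2 bone replicate 1 was at 123.0 and the others at 26.5 and 26.1. The rest of the 12 largest are the carbonic anhydrase gene Car2 (-2.45 ± 0.31), Igfbp3, which binds insulin-like growth factors (-2.45 ± 0.33), the imprinted noncoding RNA Meg3 (-2.44 ± 0.33), the muscle-type cytoskeleton gene Pdlim3 (-2.28 ± 0.28) and the semaphorin gene Sema4b (-2.08 ± 0.20).

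Over the whole extracellular matrix list 5 of 51 measured members lay above the lineage and 5 below (9.8% each, against 4.45% and 1.99% of all genes), and the median difference from the Leydig mean was 0.71. With the close pairs averaged 4 were above and 4 below, without Has2 and Timp3. Above it stood the matrix protein gene Thbs2, at 1173, 2114 and 2159 on the bone arrays, against 88.4 to 182.3 on the stem Leydig arrays and at most 29.1 on the later ones (gap 3.70 ± 0.22). Lum, the lumican gene of fibrous tissue, averaged 3066 ± 531 in bone stem cells, and stem Leydig cells were nearest at 686.2 ± 224 (gap 2.18 ± 0.34). So 3 small proteoglycans moved apart, with Lum above the lineage and Dcn and Prelp below it. The collagenase gene Mmp13 (gap 2.57 ± 0.42) and the gelatinase gene Mmp9 (1.79 ± 0.34), both also known from osteoclast and macrophage work, were uneven, at 716.2 and 175.2 on bone replicate 1 against 162.5 to 192.4 and 37.0 to 37.2 on the other bone arrays. Has2, which makes hyaluronan, had a gap of 0.83 ± 0.22. Besides Col4a5, Dcn and Lama2, the members below were Ecm1 (-1.76 ± 0.17) and the protease inhibitor gene Timp3 (-1.10 ± 0.29), and in Timp3 bone replicate 1 (100.6) overlapped the stem Leydig arrays (72.1 to 182.1).

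Of 29 measured osteoblast and bone matrix genes, 3 lay above the lineage and 1 below (10.3% and 3.45%, against 4.45% and 1.99% of all genes), and the median difference from the Leydig mean was 0.58. Ibsp, the bone sialoprotein gene, was at 108.5, 173.4 and 184.5 on the bone arrays and at most 41.7 on the Leydig arrays (gap 2.35 ± 0.31, adjusted p = 3.81e-05). Alpl, the tissue-nonspecific alkaline phosphatase gene, was at 75.3, 181.4 and 190.2 on the bone arrays, and adult cells were nearest at 35.2 ± 28.5 with single arrays from 2.97 to 71.9 (gap 1.80 ± 0.36, adjusted p = 0.00609). Spp1, or osteopontin, made by osteoblasts and macrophages, was bright in bone stem cells (3972 ± 214) and in stem Leydig cells (1875 ± 365), with a gap of 1.10 ± 0.29 (adjusted p = 0.0313). Alpl and Spp1 lost the call with the close pairs averaged (adjusted p = 0.0624 and 0.142), which left 1 gene above. Bglap, which encodes osteocalcin, a product of mature osteoblasts, was at 0.8, 5.3 and 6.0 on the bone arrays and was not called (adjusted p = 0.106). Bmp6 lay below, at 12.9 ± 5.41 in bone stem cells (gap -1.48 ± 0.27). Of 21 measured cartilage genes, 2 lay above (9.52%) and 0 below, with a median difference of -0.02. They are Acan and Fgfr3, a growth factor receptor of growth plate cartilage, at 279.1, 707.1 and 758.9 on the bone arrays and at most 37.8 on the Leydig arrays (gap 3.76 ± 0.28, adjusted p = 1.14e-08).

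Among 23 measured fat cell genes 6 lay above the lineage and 2 below (26.1% and 8.7%, against 4.45% and 1.99% of all genes, median difference 0.05). Pparg, the main factor of fat cell formation, was even across the bone arrays at 136.7, 145.4 and 151.0, with 0.994 to 30.7 on the Leydig arrays (gap 2.01 ± 0.19, adjusted p = 8.04e-07). Lpl, a lipase of fat cells and macrophages, was at 2232, 1063 and 1093 on the bone arrays, and stem Leydig cells were nearest at 415.1 ± 98.2 (gap 1.72 ± 0.28). Fabp4 is described above, and Plin4, Dgat2 and Cebpa had gaps of 1.17, 0.87 and 0.80. With the close pairs averaged, 3 of the list were above and 2 below. The members below were Dlk1, an inhibitor of fat cell formation, at 9.31 ± 7.74 in bone stem cells against 53.0 to 439.1 on the Leydig arrays (gap -1.88 ± 0.34), and the desaturase gene Scd (-1.31 ± 0.24).

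Surface and niche genes of marrow stroma gave 3 of 31 above and 2 below (9.68% and 6.45%, against 4.45% and 1.99% of all genes, median difference 0.17). Anpep, the surface peptidase CD13 of stromal and myeloid cells, was at 1001, 1233 and 1252 on the bone arrays and at 29.0 to 248.2 on the Leydig arrays (gap 2.51 ± 0.23, adjusted p = 2.85e-07). Cd9, a membrane organiser, averaged 1352 ± 224 in bone stem cells, with progenitor cells nearest at 435.5 ± 81.4 (gap 1.60 ± 0.33). Grem1, a secreted antagonist of bone morphogenetic proteins, averaged 3773 ± 425 in bone stem cells and 1359 ± 175 in stem Leydig cells (SD, n = 3 and 5), but no more than 13.4 on any later Leydig array (gap 1.47 ± 0.17). Its lineage range of 6.16 was far larger than the gap, so the stem Leydig cells lay nearer to bone stem cells than to their own later stages in Grem1. Thy1 and Cd44 did not pass against stem Leydig cells (adjusted p = 0.233 and 0.252). Below the lineage were Ly6e (gap -1.14 ± 0.18) and Pdgfra, the receptor used to mark stem Leydig cells. Pdgfra was at 407.0, 411.7 and 418.8 on the bone arrays, while the stem Leydig arrays had 448 to 929.6 (gap -0.85 ± 0.20, adjusted p = 0.0133), a call lost with the close pairs averaged (adjusted p = 0.0821), which left 1 gene of the list below.

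In the list of BMP, TGF-beta and activin signalling 4 of 29 lay above the lineage and 0 below (median difference 0.92), and in the Wnt list 5 of 33 above and 0 below (median -0.09). These are 13.8% and 15.2% above, against 4.45% of all genes, and with the close pairs averaged 3 and 4 genes were above, without Bmper and Wnt4. Nog, the noggin gene, whose product binds bone morphogenetic proteins, was at 86.5, 175.4 and 162.6 on the bone arrays and at most 10.8 on the Leydig arrays (gap 2.70 ± 0.18, adjusted p = 3.87e-09). Bmper, a further modulator, had a gap of 1.71 ± 0.42, but bone replicate 1 at 66.3 lay within the stem Leydig range of 10.4 to 117.6. Tgfb3, a ligand, averaged 1960 ± 301 in bone stem cells and 815.6 ± 351 in stem Leydig cells (gap 1.36 ± 0.26), and the receptor gene Tgfbr1 had a gap of 0.71 ± 0.17. Nkd2, an inhibitor within Wnt signalling, was at 279.7, 513.4 and 516.1 on the bone arrays and at most 55.7 on the Leydig arrays (gap 2.82 ± 0.19). Ccn5, a Wnt-induced matrix protein gene, had a gap of 2.51 ± 0.20, the ligand genes Wnt5a and Wnt4 gaps of 1.53 ± 0.26 and 1.51 ± 0.32, and Rspo1, at 13.0 ± 2.6 in bone stem cells, 0.52 ± 0.11. Wnt4 overlapped the stem Leydig arrays and lost the call with the close pairs averaged (adjusted p = 0.0697). Of 29 fibroblast and insulin-like growth factor genes 1 lay above and 1 below (3.45% each, against 4.45% and 1.99% of all genes, median -0.19). Fgf7, a growth factor that stromal cells send to epithelia, was at 225.5, 394.8 and 427.5 on the bone arrays and at most 57.5 on the Leydig arrays (gap 2.87 ± 0.23), and Igfbp3 was the member below.

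In testosterone synthesis 1 of 14 measured genes lay below the lineage and 0 above (7.14% below, against 1.99% of all genes), and the median difference from the Leydig mean was -1.45. Star, which brings cholesterol into mitochondria, was at 441.7, 15.9 and 15.9 on the bone arrays, and the stem Leydig arrays ran from 242.9 to 1446 (gap -3.03 ± 0.64, adjusted p = 0.0053). Bone replicate 1 thus lay within the stem Leydig range while the close pair did not, and with the pair averaged Star was not called (gap -2.39, adjusted p = 0.102). Cyp11a1 averaged 15.4 ± 4.98 in bone stem cells and 15.7 ± 3.84 in stem Leydig cells, and Insl3 11.6 ± 1.36 and 15.7 ± 5.18. Lhcgr was at 12.3 to 15.9 on the bone arrays, while the stem Leydig arrays had 9.22 to 15.4. Against the Leydig mean Cyp11a1 differed by -4.87 ± 0.14, Lhcgr by -4.60 ± 0.12 and Insl3 by -5.36 ± 0.23 on the log2 scale. Among 25 Leydig receptors and hormones 0 passed in either direction (median difference -0.69).

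In cholesterol synthesis and uptake 9 of 21 measured genes lay below the lineage and 0 above, against 1.99% of all genes below, and the median difference was -0.87. Idi1, which makes the isoprene units of cholesterol, was at 133.2, 98.4 and 104.9 on the bone arrays, against a lowest value of 288.4 and a median of 572.4 on the Leydig arrays (gap -1.59 ± 0.23, adjusted p = 0.000109). Cyp51, the lanosterol demethylase gene, averaged 240.9 ± 16.8 in bone stem cells and was at 556 or more on every Leydig array (gap -1.31 ± 0.17). Insig1, which holds back the pathway when sterols are plentiful and is itself a target of its regulator, had a gap of -1.26 ± 0.18, and Fdft1, the squalene synthase gene, -1.03 ± 0.13. Msmo1, Sc5d, Sqle and Lss, 4 later enzymes, had gaps of -0.98, -0.66, -0.56 and -0.56, and Srebf2, the regulator of the pathway, -0.60. Stem Leydig cells made the nearest group for Idi1, Cyp51, Insig1, Fdft1, Srebf2 and Lss. The count was 5 with the close pairs averaged and 4 after median centring.

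In the other lists calls were single genes or none, apart from the Sertoli cell markers. Over all genes 4.45% lay above and 1.99% below. The shares above were 5.26% for smooth muscle, 2.56% for the cell cycle, 7.69% for erythroid and marrow markers and 23.1% for Sertoli cell markers. Those below were 7.69% for Sertoli cell markers and 6.67% for glia and neurons. The cell cycle share is thus under that of all genes, and each single call makes up the whole share of its list. Actg2, a smooth muscle actin, was the only smooth muscle and contractile gene above among 19 (median difference 1.69), at 3342 ± 704 in bone stem cells and 1646 ± 538 in stem Leydig cells, and lost the call with the close pairs averaged (gap 0.97, adjusted p = 0.19). In the cell cycle list 1 of 39 lay above and 0 below (median 0.42). It was Cdkn1a, which halts the cycle, at 1466, 2462 and 2392 on the bone arrays, while the stem Leydig arrays had 746.9 to 1096 (gap 1.20 ± 0.19, adjusted p = 0.000269). Of 26 MHC and interferon genes 0 passed (median -0.94). Among 13 erythroid and marrow markers 1 lay above, Pf4, a platelet chemokine that macrophages can also make, at 1697 ± 232 in bone stem cells and at most 216.4 on the Leydig arrays (gap 3.76 ± 0.31). The globin gene Hbb was at 18.9, 2.6 and 3.5 on the bone arrays, against 3086 to 4741 on the progenitor arrays, so red cell transcripts were near the bottom of the scale in bone stem cells. Endothelial (17), germ cell (15) and skeletal muscle (17) markers had 0 calls in either direction, and Pecam1 and Vwf, which define endothelium, did not exceed 12.2 on the bone arrays. Of 13 Sertoli cell markers 3 lay above (Wnt4, Gatm and Ctsl) and 1 below (Clu, gap -0.97 ± 0.20), and with the close pairs averaged 0 were above. Tubb3, with a gap of -1.88 ± 0.27, was the only one of 15 glial and neuronal markers that passed. Of 4 sex-linked genes 0 passed. Xist, the X inactivation RNA, was at 0.4 to 8.8 on the bone arrays and 0.958 to 16.4 on the Leydig arrays, and the Y-linked gene Eif2s3y at 329.0 to 418.4 on the bone arrays and 70.5 to 426.9 on the Leydig arrays.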

How the data were processed

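The deposited values are intensities, 1 signal per probe set and array, which the authors made in the GCOS software by the MAS5 method. The source for this is the submitters' processing notes, which give no versions. Per the labels' protocols, total RNA was taken with Trizol and a column, and biotin-labelled cRNA was made from it. The 2% trimmed mean of each array was close to 100, so the deposited table had already been scaled. Depth has no meaning for arrays, and their number limits the precision.

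Of 31099 probe sets, 57 controls were left out. The platform annotation gives 1 symbol for 20826 of the remaining 31042, several for 436 and none for 9780. RefSeq held the gene ID of 20758 of the probe sets with 1 symbol, and 0 symbols were updated. A gene was represented by its probe set with the highest mean over all arrays (14217 genes), and 336 called genes have further probe sets, of which 0 had an opposite call. In 75 of the 336 a further probe set had the same call, and in the rest no further probe set was called. Of the called probe sets 158 above and 100 below carry no single symbol.

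All 19 arrays entered 1 fit with 5 group means on log2(signal + 16) in limma 3.58.1 (R 4.3.3), with an intensity trend. The p-value for a difference from all 4 Leydig groups was the largest of the 4 two-sided p-values where their signs agreed and 1 otherwise, adjusted by the Benjamini-Hochberg method over the 31042 probe sets. The fit was tested on simulated data. Python 3.11.15, pandas 2.3.3 and matplotlib 3.10.9 were used for promoters and plots. The 14 alternative settings and the 19 fits without 1 array each are given in the closing section.

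The genes and the 25 gene lists, 18 of pathways and 7 of cell type markers, were chosen with earlier results of these data known. Of their 692 symbols 575 were measured. Named are the 12 largest gaps in each direction among called genes whose arrays did not overlap and whose signal was at or above the median probe set, the called member of each list with the largest gap in each direction, and a set named whatever the result (Alpl, Bglap, Spp1, Hoxa10, Gata4, Wt1, Nr5a1, Tcf21, Star, Cyp11a1, Lhcgr, Insl3, Pdgfra and Xist). Symbols of predicted genes were passed over. Other called list members are named to account for the counts, and C1qa, C1qb, C1qc, Laptm5, Cd163, Cd74, Lhx2, Dmrt1, lymphocyte markers, Eif2s3y and all genes of the other observations were chosen after their values were seen. The motifs and the promoters shown were also chosen with these values known. Replicate numbers were not taken as pairing the samples.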

Additional observations from a re-analysis of the deposited data

Results flagged for a closer look

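In 56 named genes the 3 Leydig groups of 4 or 5 arrays were searched for single arrays far from the rest of their group, and 23 of 168 checks found one, where chance gives about 1 in 20. Bone stem cells and progenitor cells, with 3 arrays each, were not searched. Immature replicate 4 stood apart in 7 genes. It was high in Lama2 (2354.7, others 1121.2 to 1241.4), Ibsp (41.7, others 2.4 to 2.9), Alpl (18.2, others 2.2 to 3.0) and Wt1 (80.3, others 38.6 to 43.8). It was low in Folr2 (23.1, others 35.9 to 38.3), Bmp6 (102.8, others 183.7 to 200.8) and Spp1 (15.1, others 63.8 to 71.8). Stem replicate 3 stood apart in 5, high in Acan (43.2, others 11.8 to 17.0) and Nr5a1 (96.3, others 70.5 to 75.1) and low in Meg3 (210.6, others 685.6 to 922.7), Prelp (78.2, others 146.2 to 155.6) and Pdgfra (448, others 758.9 to 929.6). Adult replicate 3 stood apart in 4, high in Thbs2 (25, others 12.6 to 12.8), Wnt4 (4.7, others 1.1 to 1.6) and Pdgfra (2149.9, others 1749.5 to 1793) and low in Lilrb4 (10.5, others 17.2 to 18.1). Immature replicate 1 was low in 3 genes, Idi1 (340.6, others 540.3 to 562.9), Cyp11a1 (1758.2, others 2436.3 to 2505.8) and Insl3 (1601.8, others 4075.2 to 4737.8). Single genes stood apart on adult replicate 1 (Col4a5 at 968.3, others 825.2 to 842.8), stem replicate 1 (Car2 at 48.5, others 115.6 to 151.6), stem replicate 2 (Folr2 at 15.3, others 24.9 to 28.6) and immature replicate 3 (Bglap at 1.2, others 0.6).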

How the results depend on the processing

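Probe sets are counted here, with 875 above and 484 below all 4 Leydig groups, 4950 higher and 7437 lower than the Leydig mean, and 564 above and 278 below with a gap over the lineage range. Median centring gave 282 below, 7937 higher, 4281 lower and 155 below over the range, and turned the difference of Xist from the Leydig mean to 0.0391. A pseudocount of 1 gave 436 below over the range. Array quality weights gave 1825 above, 1826 below, and 907 and 840 over the range. A gap of at least 1 left 429 above, 204 below, 1728 higher, 2027 lower, and 327 and 130 over the range. Testing each of the 4 contrasts at the threshold gave 944 below and 485 below over the range. Arrays that do not overlap left 1370 higher and 1231 lower. With the close pairs averaged 225 were below and 137 below over the range. Without progenitor replicate 3 and immature replicate 4 together 759 were below. Averaging a gene over its probe sets, which counts genes and not probe sets, gave 320 below, 3059 higher, 3934 lower and 157 below over the range. With 1 probe set per gene, the main fit had 283 genes below and 144 below over the range. The test of each contrast has no counterpart for the Leydig mean, and without the lowest 40% of probe sets 6 named genes had no value. The cause of these shifts was not tested, except that the stricter rules and the fewer features tested lower a count by construction.

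Leaving out 1 array at a time gave 602 to 946 above, 230 to 645 below, 4070 to 5089 higher, 5248 to 7957 lower, and 450 to 619 and 143 to 389 over the range. Deviations of the 33 same-numbered pairs correlated by 0.021 on average (-0.425 to 0.375), against -0.0085 for the 110 other pairs. Of the 33, 9 correlated by over 0.1, and 7 of 19 arrays correlated best with their own number. An average cannot tell whether replicate numbers pair some of the samples. With the replicate block 716 were above and 385 below, and Actg2, Spp1, Wt1 and Pdgfra lost the call.

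Over single genes, 1627 comparisons across settings kept direction and call and 46 lost the call. The highest adjusted p over the alternatives was 0.215 for Actg2, 0.12 for Alpl, 0.158 for Clu, 0.0821 for Pdgfra, 0.151 for Spp1, 0.102 for Star, 0.712 for Tbx3, 0.11 for Tcf21, 0.0699 for Wnt4 and 0.15 for Wt1. With 3 bone arrays, of which 2 are a close pair, the spread of bone stem cells rests on few values, and signals near the bottom of the scale limit what dim genes can show.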

Other observations

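The genes below were chosen after their values were seen. Genes known from osteoclasts and lysosomes were above the lineage in part. Gpnmb, a lysosomal membrane protein gene, was at 3743, 4453 and 4211 on the bone arrays, while the stem Leydig arrays had 805.4 to 1436, with 60.0 as the highest later value (gap 1.93 ± 0.22, adjusted p = 3.92e-06). Acp5, the tartrate-resistant acid phosphatase gene, was at 254.5, 337.8 and 379.5 on the bone arrays and 90.8 to 148.1 on the Leydig arrays (gap 1.19 ± 0.14), and Tcirg1, a proton pump subunit gene, had a gap of 1.65 ± 0.18. The protease gene Lgmn (1.30 ± 0.13) and Nfatc1, a factor of osteoclast formation (0.85 ± 0.18), were above as well. Ctsk, the main osteoclast protease gene, averaged 634.8 ± 14.6 in bone stem cells and 670.3 ± 36.7 in stem Leydig cells and was not called.

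Bone stem cells and stem Leydig cells were close in some genes that later Leydig stages lack. Tnc, the tenascin C gene, averaged 1595 ± 92.3 in bone stem cells and 1424 ± 207 in stem Leydig cells, with at most 10.7 on the later arrays, and was not called (gap 0.17 ± 0.14), whereas its relative Tnn had the largest gap of all genes. Itga11, a collagen receptor gene, averaged 2531 ± 647 in bone stem cells and 664.6 ± 238 in stem Leydig cells and was called above (gap 1.93 ± 0.24). Among rapidly induced genes Per1 (gap -1.30 ± 0.19), Klf4 (-1.56 ± 0.29) and Junb (-1.07 ± 0.24) were below the lineage without overlap, Fosb and Fos were below with bone replicate 1 inside the Leydig range (119.1 and 1392, against 22.0 and 21.9 and 415.4 and 406.0 on bone replicates 2 and 3), and Egr1 and Jun were not called. Mmp3 was at 436.4, 14.2 and 11.1 on the bone arrays and was not called.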
